A study of Mus musculus with 5 samples.

Results

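Mouse embryonic stem cells grown for 72 h with LIF and 300 mM sorbitol were compared with the same cell line grown with LIF and no sorbitol. The comparison took each barcode with at least 500 detected genes in the 300 mM library, 9849 barcodes, and in the unstressed library, named NS by the labels, 10000 barcodes. Together these are 19849 of the 49074 barcodes that passed the same minimum in the 5 libraries of the series. The line is REX-1 RFP, in which a reporter of red fluorescence is driven by the promoter of Rex1 (gene symbol Zfp42). Both cultures were labelled LIF positive. The labels give 1 library a condition and do not spell out NS. The other libraries, used here only beside these, were LIF with 200 mM or 250 mM sorbitol and a culture without LIF, named ND.

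Sorbitol is a sugar alcohol that enters cells slowly, so in the medium it draws water out of them. Mammalian cells answer such hyperosmotic stress first by taking up ions and later by accumulating small organic osmolytes, among them betaine, taurine, myo-inositol and sorbitol itself. The transcription factor Nfat5 binds tonicity response elements near the genes for the transporters and enzymes concerned. Leukaemia inhibitory factor (LIF) acts through Stat3 to keep mouse embryonic stem cells in the naive pluripotent state, whose network includes Klf4, Tbx3, Esrrb, Nanog and Zfp42.

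The kept barcodes held 22158653 unique molecular identifier (UMI) counts in NS and 8292073 at 300 mM, with medians of 2135 and 801 UMIs a barcode. At an equal 500 UMIs a barcode, the median number of genes was 359 in NS and 379 at 300 mM. Mitochondrially encoded genes took 3.98% of UMIs in NS and 6.13% at 300 mM, and cytosolic ribosomal protein genes 28.3% and 21.2%. The libraries shared 36 barcode sequences. All 6 stem cell markers looked up (Pou5f1, Sox2, Nanog, Zfp42, Esrrb and Dppa5a) were above 5 CPM in both libraries, with summed levels of 6238 CPM in NS and 7368 CPM at 300 mM. The 3 blood markers summed to 0.0451 and 0.362 CPM and the 6 fibroblast markers to 3.70 and 7.60 CPM, with Col3a1, Postn and Dcn at 0 UMIs in both libraries.

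Levels are CPM, the UMIs of a gene summed over barcodes and scaled so that each library's kept UMIs have the same total. Of 10671 genes measured, that is at 5 CPM or more in NS or at 300 mM, 3496 (32.8%) were at least 1.5-fold higher at 300 mM and 1129 (10.6%) at least 1.5-fold lower. Median-of-ratios scaling lowers every log2 ratio by 0.30 and turns these counts into 1994 (18.7%) and 2169 (20.3%). The share of higher genes among those past 1.5-fold was therefore 75.6% in CPM and 47.9% with that scaling. The median gene had a log2 ratio of 0.29, and list medians below are to be read against it. List counts are to be read against 32.8% higher and 10.6% lower, or 18.7% and 20.3% with median-of-ratios scaling. With 1 library a side there is no replicate and no test. Intervals are 95% and cover counting error only, and 8024 of the 10671 had an interval that excluded 0.

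Among genes that reached 50 CPM on one side or both, the 15 highest ratios were led by Ly6a. Ly6a (chr15:74994877-74998031), which encodes the surface protein Sca-1, stood at 8.39 CPM in NS, 139 CPM at 200 mM, 150 CPM at 250 mM and 134 CPM at 300 mM. The 300 mM level was 15.9-fold that of NS (log2 3.99, interval 3.77 to 4.23). Hmga2, an architectural chromatin protein of embryonic cells, was at 5.82 CPM in NS, 33.9 and 43.2 CPM at the lower doses and 60.9 CPM at 300 mM, a 10.5-fold difference. Ly6a thus lay near the same level in the sorbitol libraries, whereas Hmga2 was higher at each larger dose. Of the 15 genes with the highest ratios, all 15 were above NS at both lower doses too, and 7 were higher at 300 mM than at 200 and 250 mM beyond their counting intervals (Hmga2, Fzd5, Sgk1, Tcf7l2, Slc23a2, Nfib and Snx18). Ly6a, Hist1h1c, Fxyd2 and Nrk were below at least one of the lower doses by the same measure. Of the 15 with the lowest ratios, all 15 were below NS at both lower doses, and Hist1h1b, Hist1h2ae, Blvrb, Cyba and Ptcra were lower still at 300 mM. These genes were chosen by their ratio of 300 mM to NS, which favours levels furthest from NS at 300 mM. Several of the higher ones, such as Fzd5, Slc23a2 and Snx18, reached 50 CPM only at 300 mM. The lower doses were set against the same NS library, so these counts are description, not independent support for an order by dose.

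**Figure D1:**
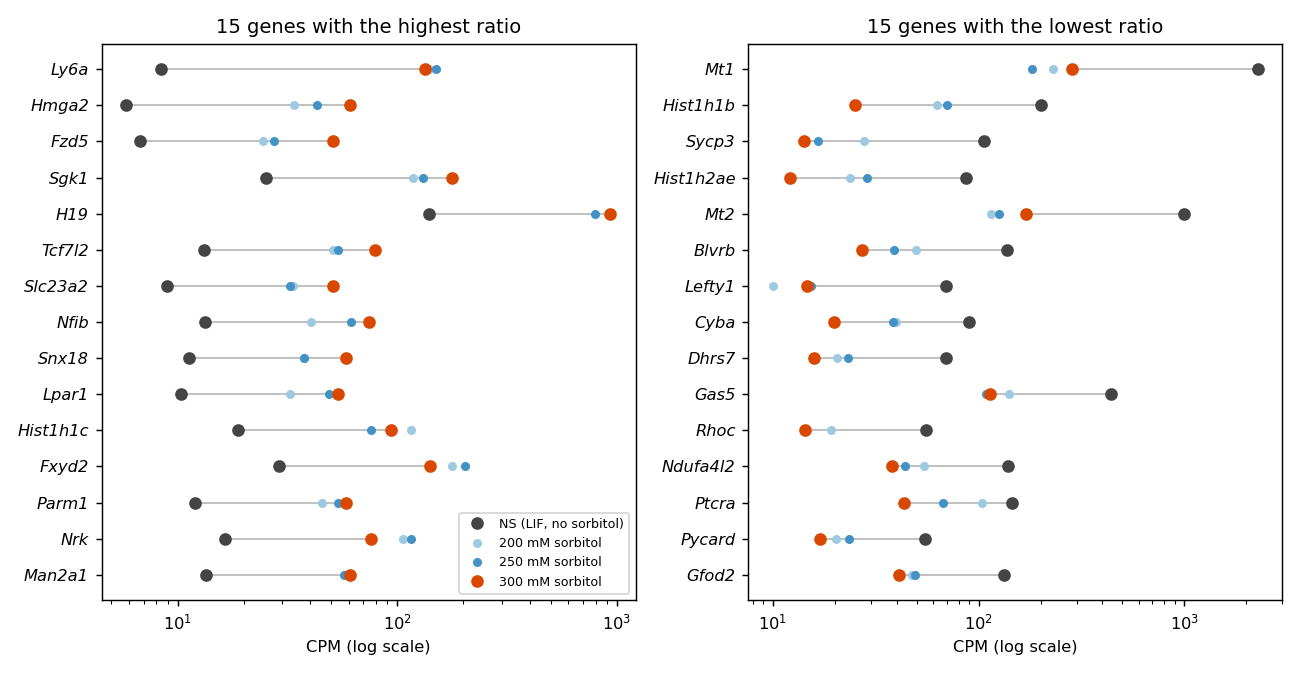
Levels of the 15 genes with the highest (left) and the 15 with the lowest (right) ratio of 300 mM sorbitol to NS, among genes reaching 50 CPM in NS or at 300 mM. Each point is 1 library, on a log scale of CPM; the grey line joins NS and 300 mM. Mt1 lies at 2287 CPM in NS and 285 CPM at 300 mM, and Ly6a goes from 8.39 to 134 CPM.

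Genes of osmolyte transport and synthesis were higher as a group. Of 20 listed genes 18 were measured, 14 were at least 1.5-fold higher and 0 lower, against 32.8% higher over all measured genes, and the list's median log2 ratio was 1.12. With median-of-ratios scaling 11 of the 18 stayed higher and the median was 0.82. Slc6a12, the betaine transporter (chr6:121343076-121365775), had 6 UMIs in NS (0.271 CPM) and 56 UMIs at 300 mM (6.75 CPM), with 3.69 CPM at 200 mM and 7.17 CPM at 250 mM. Its ratio was 24.9-fold, with a log2 interval from 3.43 to 6.15 that reflects the few UMIs in NS. Sgk1, a kinase that regulates ion transporters (chr10:21882184-21999903), stood at 25.3 CPM in NS, 117 CPM at 200 mM, 131 CPM at 250 mM and 177 CPM at 300 mM, 7.02-fold higher than in NS. Slc5a3, which imports myo-inositol, went from 5.78 to 27.0 CPM (4.68-fold), and was at 31.5 and 31.2 CPM at the lower doses.

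Slc6a6, the taurine transporter, was at 54.2 CPM in NS and 209 CPM at 300 mM. Akr1b3, the aldose reductase that makes sorbitol from glucose, was at 92.1 and 302 CPM, a 3.28-fold difference. Nfat5 itself was at 29.9 CPM in NS, 64.0 and 74.4 CPM at the lower doses and 92.4 CPM at 300 mM, 3.09-fold higher than in NS. The members closest to no difference were Aldh7a1, a betaine-forming enzyme (32.7 and 31.1 CPM), and the inositol monophosphatase Impa2 (82.2 and 83.5 CPM). The levels of Sgk1 and Nfat5 were ordered by dose, while those of Slc5a3 were not.

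The start region of Slc6a12 is printed because this gene had the highest ratio of the list and holds the tonicity motif there. The motif was searched on both strands in windows from 250 bases before to 50 after each start site in RefSeq (GRCm38.p6), as the letters TGGAAA, then any pair of bases, a C or T, any base, and a C or T. It stands in 1 of the 5 Slc6a12 windows, the one at chr6:121342324-121342623 on the plus strand, with the match in capitals:
Slc6a12: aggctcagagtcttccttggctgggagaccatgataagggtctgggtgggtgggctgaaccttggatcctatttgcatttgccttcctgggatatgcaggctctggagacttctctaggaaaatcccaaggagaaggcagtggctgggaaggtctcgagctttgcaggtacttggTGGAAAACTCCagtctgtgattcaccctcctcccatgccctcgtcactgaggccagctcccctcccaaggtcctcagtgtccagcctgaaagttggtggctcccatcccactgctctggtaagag
Of the 13 listed genes with a window, 2 (Slc6a12 and Pnpla6) held a match, against 5.74% of all genes with a window, and counted by window 2 of 29 held one against 4.96% of 32851. A match is a description of letters, not a binding site.

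Genes of the sodium pump and of ion and water balance showed both directions, with a median log2 ratio of 0.77. Of 23 measured members 15 were at least 1.5-fold higher and 4 lower (65.2% and 17.4%, against 32.8% and 10.6% of all). With median-of-ratios scaling 10 were higher and 4 lower. Fxyd2, the gamma subunit that modulates the sodium pump, was at 28.8 CPM in NS, 178 CPM at 200 mM, 204 CPM at 250 mM and 141 CPM at 300 mM. The beta subunits Atp1b2 (7.76 to 33.4 CPM) and Atp1b1 (72.6 to 247 CPM) were 4.30-fold and 3.40-fold higher. Aqp3, a water and glycerol channel, was at 11.6 and 46.4 CPM. Slc12a2, a cotransporter that brings sodium, potassium and chloride in, was also higher, at 21.0 and 61.6 CPM. Lower members included Stk39, a kinase that activates Slc12a2 (11.5 to 4.82 CPM), and the pump regulators Fxyd5 (13.4 to 6.63 CPM) and Fxyd6 (154 to 78.9 CPM).

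Amino acid and nutrient carriers were higher in 14 of 25 measured cases (56%, against 32.8% of all measured genes). They were lower in 1, Slc7a11, the cystine importer (10.2 to 6.51 CPM). With median-of-ratios scaling these counts were 8 and 2. Slc1a4, a carrier of alanine and serine, was 3.84-fold higher (18.7 to 71.8 CPM) and Slc7a3, a carrier of arginine and lysine, 3.39-fold (70.4 to 239 CPM). Slc38a2, the neutral amino acid carrier that hyperosmotic medium is known to induce, was at 488 and 593 CPM, short of 1.5-fold. Slc23a2, a vitamin C transporter, was 5.65-fold higher (8.98 to 50.8 CPM).

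**Figure D2:**
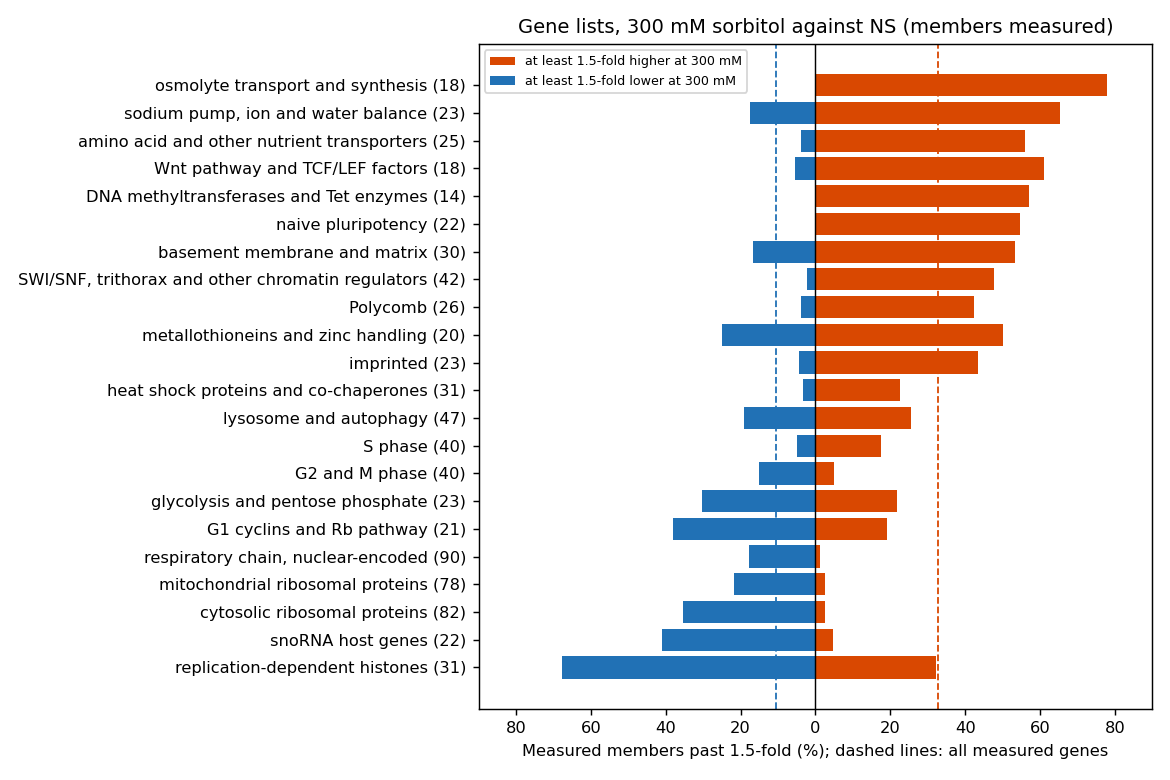
Share of measured members at least 1.5-fold higher (orange, right) or lower (blue, left) at 300 mM sorbitol than in NS, for 22 gene lists with the number of measured members in brackets. Dashed lines mark the shares over all measured genes, 32.8% and 10.6%; osmolyte genes lie at 77.8% higher and 0 lower, and replication-dependent histones at 67.7% lower.

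Of genes that reached 500 CPM in NS or at 300 mM, the metallothioneins Mt1 and Mt2 had the lowest ratios. Mt1, a small metal-binding protein that buffers zinc (chr8:94179082-94180327), was at 2287 CPM in NS, 231 CPM at 200 mM, 182 CPM at 250 mM and 285 CPM at 300 mM, 8.02-fold lower than in NS (log2 -3.00, interval -3.06 to -2.94). Its neighbour Mt2 (chr8:94172664-94173568) was at 994 CPM in NS, then 115, 126 and 170 CPM at the rising doses, 5.85-fold lower at 300 mM. For both genes the 300 mM library lay above the lower doses and far below NS. The ND library held 1509 CPM of Mt1 and 814 CPM of Mt2. ND is of like depth to 300 mM but was grown without LIF, and the part of depth was not tested. Mt3 was at 17.6 and 5.07 CPM. Zinc transporters did not share this direction: of the list's 20 measured genes 10 were higher, among them the importers Slc39a9 (12.05 to 34.97 CPM) and Slc39a11 (6.23 to 18.1 CPM) and the exporters Slc30a4 (4.24 to 11.8 CPM) and Slc30a1 (9.61 to 19.4 CPM). The lower ones beside the metallothioneins were Slc39a3 (6.36 to 2.05 CPM) and Slc30a6 (7.85 to 3.86 CPM). Mtf1, the zinc-sensing factor that drives metallothionein transcription, was at 24.3 and 23.3 CPM. In CPM 50% of the 20 were higher and 25% lower, against 32.8% and 10.6% of all measured genes. With median-of-ratios scaling 4 of the 20 were higher and 6 lower, against 18.7% and 20.3% of all.

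The start regions of Mt1 and Mt2 are shown because both genes carry several copies of the short core of the metal response element, the site of Mtf1. The core was searched as TGCACNC or TGCGCNC on both strands, and matches are in capitals (GRCm38.p6, plus strand, chr8:94178839-94179138 and chr8:94172368-94172667):
Mt1: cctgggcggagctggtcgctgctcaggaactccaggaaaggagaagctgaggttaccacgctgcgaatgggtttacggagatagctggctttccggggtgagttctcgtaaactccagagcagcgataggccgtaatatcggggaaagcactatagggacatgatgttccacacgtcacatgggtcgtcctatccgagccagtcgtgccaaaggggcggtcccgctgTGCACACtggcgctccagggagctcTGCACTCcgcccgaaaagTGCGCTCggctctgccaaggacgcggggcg
Mt2: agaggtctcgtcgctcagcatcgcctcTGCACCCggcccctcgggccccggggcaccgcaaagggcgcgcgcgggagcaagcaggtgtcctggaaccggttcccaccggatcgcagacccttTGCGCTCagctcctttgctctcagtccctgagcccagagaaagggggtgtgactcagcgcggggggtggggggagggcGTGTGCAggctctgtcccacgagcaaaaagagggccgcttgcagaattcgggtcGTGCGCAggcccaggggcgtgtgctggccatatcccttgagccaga
Mt1 held 3 matches and Mt2 4 in these windows. Of all windows 25.7% held at least 1, 1.97% at least 3 and 0.518% at least 4. Mt3 and Slc30a1 also held matches, so the motif was present in zinc genes of either direction.

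Of 30 measured iron and antioxidant genes 4 were at least 1.5-fold higher and 5 lower, against 32.8% and 10.6% of all measured genes, and median-of-ratios scaling turned the counts to 3 and 11 (18.7% and 20.3% of all). The list had a median log2 ratio of -0.13 against 0.29 for all measured genes. Blvrb, biliverdin reductase, which acts in heme breakdown, was at 138 CPM in NS and 27.1 CPM at 300 mM, 5.07-fold lower. The ferritin light chain feature Ftl1-ps1 was at 4405 and 1780 CPM and Ftl1 at 476 and 164 CPM, and the split of reads between these near-identical copies is uncertain. Txnrd1, thioredoxin reductase (229 to 112 CPM), and Gclm, a glutathione synthesis subunit (107 to 52.5 CPM), were about 2.04-fold lower each. Steap3, an iron reductase, was higher at 2.12 and 9.05 CPM. The antioxidant response element core TGACNNNGC, on either strand, stood at 3 of the 7 genes with a window among 9 looked up (Txnrd1, Gclm and Srxn1), against 13.99% of all genes with one.

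Naive pluripotency genes were higher or little different. Of 22 measured, 12 were at least 1.5-fold higher (54.55%, against 32.8% of all measured genes) and 0 lower. The list's median log2 ratio was 0.61, and with median-of-ratios scaling 7 were higher and 1 lower. Tbx3, a naive T-box factor, was at 105 CPM in NS, 280 CPM at 200 mM, 326 CPM at 250 mM and 411 CPM at 300 mM. Klf4, a direct Stat3 target, was at 102 CPM in NS, then 344, 407 and 395 CPM at the rising doses. Both were 3.9-fold higher than in NS at 300 mM, to 2 digits. Without LIF the ND library held 29.6 CPM of Tbx3 and 30.9 CPM of Klf4, on the other side of NS. Spp1, osteopontin, was 2.66-fold higher (111 to 295 CPM).

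Zfp42, the gene whose promoter drives the reporter, was at 562 CPM in NS, 521 CPM at 200 mM, 778 CPM at 250 mM and 879 CPM at 300 mM. Its 1.57-fold difference at 300 mM dropped below 1.5-fold with median-of-ratios scaling (log2 0.35) and when mitochondrial and ribosomal protein genes were taken out of the total (log2 0.55). Nanog was at 123 and 133 CPM (log2 0.11, interval 0.01 to 0.21) and Esrrb at 91.8 and 106 CPM, so neither neared 1.5-fold. Sox2 was at 358 and 682 CPM, 1.90-fold higher, whereas Pou5f1, its partner in the core network, was at 248 and 170 CPM, 1.46-fold lower. Sall4, another core factor, was 3.87-fold higher (81.8 to 317 CPM). Pou5f1 and Sox2 thus stood on opposite sides of NS in CPM and also with median-of-ratios scaling (log2 -0.84 and 0.63).

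The LIF receptor subunits were within 1.5-fold. Lifr was at 16.1 and 20.5 CPM, Il6st at 25.1 and 27.5 CPM and the factor Stat3 past it (though not with median-of-ratios scaling) at 43.6 and 68.4 CPM. Socs3, the feedback inhibitor of the receptor, was at 36.5 and 44.98 CPM, and Socs2 at 38.7 and 30.2 CPM. Of 17 measured genes of the LIF receptor, Stat3 and its targets 8 were higher (47.1%, against 32.8% of all) and 0 lower. With median-of-ratios scaling 3 were higher and 1 lower, against 18.7% and 20.3% of all. Genes of the formative and primed epiblast, the stages that follow the naive state, were mixed, with a median log2 ratio of 0.06. In this list 5 of 14 were higher (35.7%) and 1 lower (7.14%), near the 32.8% and 10.6% of all measured genes. Otx2 (21.5 to 62.2 CPM), Foxd3 (1.49 to 9.04 CPM) and Sox4 (6.81 to 17.1 CPM) were higher, Tcf15 was lower (35.5 to 19.5 CPM), and Pou3f1, at 12.1 and 8.08 CPM, was short of 1.5-fold.

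DNA methyltransferases and Tet enzymes were higher in 8 of 14 cases (57.1%, against 32.8% of all measured genes) and lower in 0. Median-of-ratios scaling gave 5 and 1. Dnmt3b, a de novo methyltransferase, was at 41.3 CPM in NS and 124 CPM at 300 mM, and its cofactor Dnmt3l at 166 and 328 CPM. Tet2, which oxidises methylcytosine, was at 32.7 and 63.3 CPM, and Tet1 at 335 and 397 CPM. Imprinted genes, which are expressed from 1 parental allele, were higher in 10 of 23 cases (43.5%, against 32.8% of all) and lower in 1. Under median-of-ratios scaling the counts were 9 and 4, against 18.7% and 20.3% of all. H19, a maternally expressed long RNA (chr7:142575529-142578143), was at 139 CPM in NS, 943 CPM at 200 mM, 794 CPM at 250 mM and 932 CPM at 300 mM, 6.71-fold higher. Igf2, its paternally expressed neighbour and a growth factor, had 27 UMIs in NS (1.22 CPM) and 129 UMIs at 300 mM (15.6 CPM), 12.8-fold higher. Peg3 (48.9 to 143 CPM) and Peg10 (59.5 to 175 CPM) were about 2.9-fold higher, while the maternally expressed Meg3 was at 77.8 and 72.2 CPM and Phlda2 lower at 18.9 and 8.32 CPM.

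Signalling genes split within pathways. Of 18 measured Wnt genes 11 were higher (61.1%, against 32.8% of all measured genes) and 1 lower (7 and 2 with median-of-ratios scaling). The receptors Fzd5 (6.77 to 50.9 CPM) and Fzd7 (3.97 to 15.9 CPM) were 7.52-fold and 4.01-fold higher. The nuclear partners of beta-catenin Tcf7l2 (13.2 to 79.1 CPM) and Tcf7l1 (58.4 to 188 CPM) were 5.98-fold and 3.21-fold higher, and beta-catenin itself, Ctnnb1, was at 119 and 261 CPM. The target gene Ccnd1 went the other way, at 29.1 CPM in NS and 6.87 CPM at 300 mM, while Axin2, a feedback target, was at 10.2 and 15.6 CPM. The receptors and factors named here were thus higher, while the targets Ccnd1 and Axin2 did not share a direction. Axin2 was short of 1.5-fold with median-of-ratios scaling (log2 0.32). Of the 27 listed Wnt genes 9 were below the minimum, and Fzd7 passed it only at 300 mM.

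In the BMP pathway the ligand Bmp4 (28.7 to 66.6 CPM) and the inhibitory Smad6 (3.84 to 11.5 CPM) were higher, while the target genes Id1 (33.8 to 8.68 CPM) and Id2 (31.6 to 13.9 CPM) were lower and Id3 was at 18.5 and 17.0 CPM. In the Nodal pathway 2 of 14 measured genes were higher and 2 lower (14.3% each, against 32.8% and 10.6% of all). Under median-of-ratios scaling these counts were 2 and 3. The inhibitor Lefty1 was at 69.8 CPM in NS and 14.6 CPM at 300 mM, 4.78-fold lower, whereas Lefty2 was at 70.0 and 77.1 CPM and the ligand Nodal at 21.3 and 28.7 CPM. Among ERK feedback genes Spry2 (12.3 to 40.6 CPM), Spry1 (2.03 to 6.39 CPM) and Spred2 (27.8 to 70.9 CPM) were higher, and Dusp6 was at 14.9 and 21.1 CPM. Atf3, an immediate early gene, was lower at 12.4 and 6.15 CPM, and Egr1 was at 30.8 and 20.9 CPM.

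Genes that mark other lineages were measured only in part. Of 25 listed genes of primitive and extraembryonic endoderm 13 were measured, with 9 higher and 4 lower and none in between. These are 69.2% and 30.8%, against 32.8% and 10.6% of all measured genes. With median-of-ratios scaling 7 were higher and 4 lower, against 18.7% and 20.3% of all. The minimum of 5 CPM in either library favours large ratios among scarce genes, so the lack of genes between is partly set by it. Lrp2, a large endocytic receptor, was at 5.14 and 29.8 CPM and the endoderm factor Gata6 at 5.01 and 11.8 CPM, while the endoderm factors Sox17 (0.812 and 1.45 CPM) and Sox7 (0.451 and 0.844 CPM) had 18 UMIs or fewer in either library. Gata4 went the other way, from 4.197 to 3.136 CPM, under the minimum in both libraries. Pdgfra (0.767 to 3.136 CPM) and Dab2 (1.715 to 2.894 CPM) were also under it. Apoe (340 to 150 CPM) and Cited1 (26.5 to 8.92 CPM) were lower. Of 12 measured trophoblast and keratin genes 5 were higher and 4 lower (41.7% and 33.3%), or 4 and 5 with median-of-ratios scaling. Eomes (11.3 to 36.5 CPM), Cdh3 (7.90 to 29.8 CPM) and Hand1 (29.4 to 60.2 CPM) were higher, Krt19 (81.3 to 43.7 CPM) and Krt18 (30.7 to 18.9 CPM) were lower, and Cdx2 had 2 UMIs in each library. Eomes and Hand1 were also the only 2 measured of 12 listed streak and mesoderm genes, so they do not mark trophoblast alone. The trophoblast markers Gata3 (3.97 and 3.26 CPM) and Elf5 (0.271 and 0.965 CPM) were under 5 CPM. The neural factors moved apart: Sox21 was at 3.47 CPM in NS, 22.2 and 30.6 CPM at the lower doses and 45.7 CPM at 300 mM, 13.2-fold higher, while Pax6 had 169 UMIs in NS and 6 at 300 mM (7.63 and 0.724 CPM). Tubb3 was at 49.6 and 48.5 CPM.

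Chromatin regulators were higher more often than genes overall in CPM. In the list of SWI/SNF, trithorax and related regulators 20 of 42 were higher and 1 lower, and among Polycomb genes 11 of 26 were higher and 1 lower. With median-of-ratios scaling these were 13 and 1, and 8 and 1, against 18.7% and 20.3% of all genes. Epop, a partner of Polycomb repressive complex 2 in stem cells, was at 175 CPM in NS, 324 and 435 CPM at the lower doses and 549 CPM at 300 mM. Jarid2 (285 to 679 CPM) and Suz12 (252 to 535 CPM), subunits of that complex, were 2.38-fold and 2.12-fold higher, while its methyltransferase Ezh2 was at 129 and 117 CPM and Phf19 was lower at 11.1 and 3.26 CPM. The deacetylases Hdac1 (70.3 to 164 CPM) and Hdac2 (48.9 to 120 CPM) and the SWI/SNF subunit Arid1a (82.1 to 197 CPM) were higher, and its ATPase Smarca4 was at 133 and 130 CPM. Only Brd9 of that list was lower, at 78.9 and 47.8 CPM.

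Matrix and adhesion genes were higher in 16 of 30 measured cases and lower in 5 (53.3% and 16.7%, against 32.8% and 10.6% of all). Under median-of-ratios scaling the counts were 12 and 5. Fn1, fibronectin, was at 91.7 CPM in NS, 283 and 284 CPM at the lower doses and 391 CPM at 300 mM. The basement membrane genes Lamc1 (27.5 to 83.9 CPM) and Nid1 (23.4 to 65.0 CPM) and the laminin receptor subunit Itga6 (58.7 to 164 CPM) were 2.78-fold to 3.05-fold higher. Lamb1, which pairs with Lamc1 in laminins, was lower at 15.8 and 9.41 CPM (though not past 1.5-fold among barcodes with at least 600 genes), as were Timp1, a protease inhibitor (19.7 to 6.99 CPM), and Pcolce (73.2 to 26.2 CPM). Among junction genes the claudins Cldn7 (190 to 79.8 CPM) and Cldn3 (15.4 to 5.07 CPM) were lower, while E-cadherin, Cdh1, was higher at 67.7 and 152 CPM. Actin-linked genes mostly stayed within 1.5-fold, 30 of 39. Pfn1, profilin, which feeds actin monomers to filaments, was at 383 and 1277 CPM, 3.33-fold higher, while the severing protein Dstn was 2.27-fold lower (1380 to 608 CPM) and the small GTPase Rhoc 3.86-fold lower (55.5 to 14.4 CPM).

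Replication-dependent histone genes, which supply histones in S phase and whose transcripts usually end in a stem-loop without a poly(A) tail, lay on both sides with none between. Of 67 listed, 31 were measured and 36 were not. Of the 31, 21 were at least 1.5-fold lower and 10 higher (67.7% and 32.3%, against 10.6% and 32.8% of all). With median-of-ratios scaling 21 were lower and 9 higher. Many scarce members passed the minimum only in the library where they were high, such as Hist1h2bm (7.72 to 1.45 CPM) and Hist2h4 (1.99 to 5.79 CPM). That favours large ratios, so the lack of genes between is partly set by the minimum. Hist1h1b, a linker histone, was at 200 CPM in NS, 63.0 and 70.1 CPM at the lower doses and 25.2 CPM at 300 mM, 7.94-fold lower. Another linker histone of the same cluster, Hist1h1c, was at 18.9 CPM in NS, 116 and 76.0 CPM at the lower doses and 93.3 CPM at 300 mM, 4.94-fold higher. Each of the linker and core families held members on both sides: 4 of 5 H1 genes, 3 of 5 H2A, 5 of 6 H2B, 6 of 9 H3 and 3 of 6 H4 genes were lower. Summed over measured members, H1 (330 to 165 CPM), H2A (873 to 534 CPM), H3 (66.8 to 56.0 CPM) and H4 (66.6 to 49.4 CPM) were lower. The H2B sum was higher (59.9 to 72.2 CPM), with most of it at 300 mM from Hist1h2bc. Hist1h2bc (14.8 to 58.2 CPM), Hist1h2ac (3.38 to 13.1 CPM) and Hist2h3c1 (1.26 to 9.89 CPM) were among the higher ones. The most abundant, Hist1h2ap, was at 739 and 488 CPM. Many of these genes are near-identical copies, so how reads were split among them is uncertain. How far transcripts without a poly(A) tail were captured was not tested, so these levels may not stand for all histone transcripts.

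**Figure D3:**
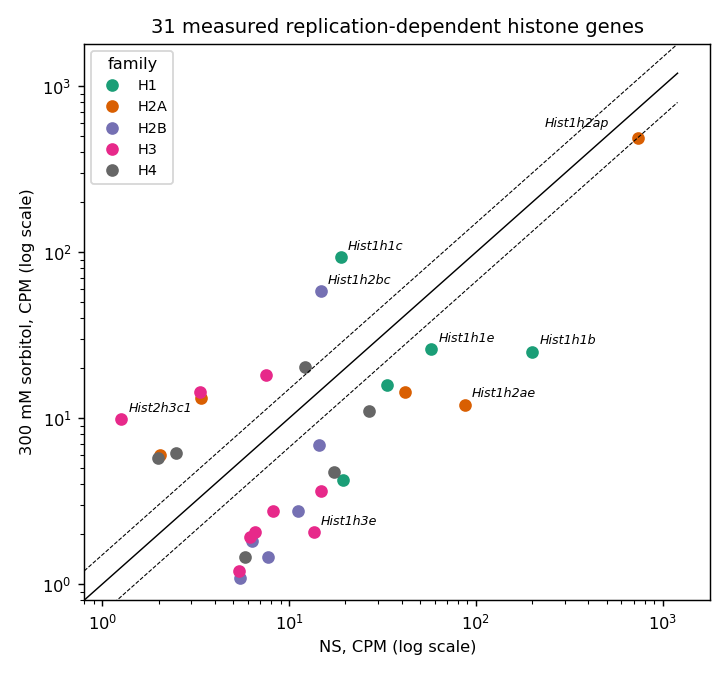
Level of each of the 31 measured replication-dependent histone genes in NS (horizontal) and at 300 mM sorbitol (vertical), in CPM on log scales, coloured by family. The solid line marks equal levels and the dashed lines 1.5-fold. Below the band lie 21 genes and above it 10, and each family has points on both sides. The minimum of 5 CPM in either library favours scarce genes far from the line.

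Other cell cycle genes differed less. Of 40 S phase genes 7 were higher and 2 lower, and of 40 genes of G2 and mitosis 2 were higher and 6 lower. Over all measured genes 32.8% were higher and 10.6% lower, so both lists had a smaller share higher (17.5% and 5%). With median-of-ratios scaling the counts were 2 and 8, and 0 and 14, so the S phase split depends on the scaling. Ccne2, a cyclin of S phase entry, was at 60.1 and 22.3 CPM, and Top2a, a topoisomerase of G2 and mitosis, at 959 and 537 CPM. In the G1 list 8 of 21 were lower (38.1%) and 4 higher (19.05%), or 10 and 3 with median-of-ratios scaling. The lower ones included Ccnd1, Ccnd2 (30.2 to 14.3 CPM) and E2f3 (75.6 to 37.6 CPM). The higher ones included Cdk2 (13.4 to 39.7 CPM) and Rb1 (15.98 to 34.7 CPM).

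Meiotic and germline genes were divided, 8 of 25 higher and 8 lower (32% each, against 32.8% and 10.6% of all measured genes). With median-of-ratios scaling the counts were 5 and 13, against 18.7% and 20.3% of all. Sycp3, a protein of the synaptonemal complex, was at 107 CPM in NS, 27.9 and 16.6 CPM at the lower doses and 14.1 CPM at 300 mM, 7.56-fold lower. Stra8, which starts meiosis, was at 48.3 CPM in NS, then 191, 196 and 167 CPM at the rising doses. The meiotic gene Meioc (17.1 to 60.9 CPM), the RNA-binding protein Dazl (8.03 to 32.9 CPM) and Taf7l (8.80 to 42.2 CPM) were higher, while Ddx4 (15.2 to 6.75 CPM) and Rhox6 (126 to 58.7 CPM) were lower.

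Ribosomal protein genes, cytosolic and mitochondrial, and nuclear-encoded respiratory chain genes were past 1.5-fold mostly on the lower side, where 10.6% of all measured genes lay (20.3% with median-of-ratios scaling). Of 82 cytosolic ribosomal protein genes 29 were at least 1.5-fold lower and 2 higher, or 53 and 2 under that scaling, with a median log2 ratio of -0.44. The abundant Rpl28 was at 3587 and 1543 CPM, and the higher ones were the tissue-restricted copies Rpl10l (27.8 to 116 CPM) and Rpl39l (39.9 to 104 CPM). Mitochondrial ribosomal protein genes were lower in 17 of 78 cases and higher in 2 (44 and 2 under that scaling). Nuclear-encoded respiratory chain genes were lower in 16 of 90 and higher in 1 (41 and 0). Among the latter Cox4i2 (19.5 to 4.34 CPM) and Ndufa4l2 (138 to 37.8 CPM), both known as hypoxia-linked subunits, had the lowest ratios. The 13 genes encoded in the mitochondrial genome were 5 higher and 1 lower (2 and 1 under that scaling), from mt-Co3 (5975 to 12706 CPM) to mt-Atp8 (408 to 192 CPM). Host genes of small nucleolar RNAs, which guide ribosomal RNA modification, were lower in 9 of 22 cases and higher in 1 (12 and 0). Translation initiation and elongation factors stood at 7 of 64 lower and 9 higher (20 and 3), and of 20 tRNA synthetase genes 1 was lower and 1 higher (3 and 0). Gas5 was at 443 CPM in NS, 141 and 109 CPM at the lower doses and 113 CPM at 300 mM, 3.91-fold lower.

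Glycolytic genes were mixed, 5 of 23 higher and 7 lower (21.7% and 30.4%, against 32.8% and 10.6% of all measured genes). With median-of-ratios scaling these were 2 and 9. Gapdh was at 3559 CPM in NS, 1642 and 2195 CPM at the lower doses and 1443 CPM at 300 mM, 2.47-fold lower, and Ldhb was at 493 and 244 CPM. The glucose transporter Slc2a3 (1173 to 2446 CPM) and the phosphofructokinase Pfkp (161 to 374 CPM) were higher. Of 47 lysosome and autophagy genes 12 were higher (25.53%) and 9 lower (19.15%), and median-of-ratios scaling turned these counts to 9 and 11. Glb1, a lysosomal galactosidase, was among the higher (17.7 to 71.4 CPM) and the autophagy receptor Sqstm1 among the lower (367 to 197 CPM).

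After 72 h the counts in the stress lists depended on the scaling. Over all measured genes 32.8% were higher and 10.6% lower, or 18.7% and 20.3% with median-of-ratios scaling. In CPM the share higher was below that for heat shock (22.6%), endoplasmic reticulum chaperone (4.76%), Atf4 target (25.9%) and p53 and apoptosis genes (25.8%). It was above that for stress-activated kinases (41.2%). With median-of-ratios scaling the kinase (3 of 17 higher), Atf4 target (5 of 27) and p53 (5 of 31) lists were all near the 18.7% of all. Heat shock genes were higher in 7 of 31 cases and lower in 1, which median-of-ratios scaling turned to 3 and 6, with Hspa1b, an inducible Hsp70, at 3.47 and 12.7 CPM and Hspa8, the constitutive form, at 1525 and 1366 CPM. Of 21 endoplasmic reticulum chaperone genes 1 was higher and 2 lower (0 and 3 under that scaling), and Hspa5 was at 342 and 367 CPM. Targets of Atf4, the factor of the integrated stress response, were split, with 7 of 27 higher and 4 lower (5 and 8 under that scaling), among them Psat1 (319 to 744 CPM) and Cth (48.6 to 135 CPM) higher and Chac1 (69.9 to 28.9 CPM) and Nupr1 (296 to 148 CPM) lower. Of 17 stress-activated kinase and feedback genes 7 were higher and 1 lower (3 and 2). Map3k5 (3.43 to 10.5 CPM) and Mapk14, which encodes p38 alpha (46.1 to 82.5 CPM), were higher, the latter not under that scaling, and Gadd45b was lower (36.9 to 14.6 CPM). In the list of p53 targets and apoptosis genes 8 of 31 were higher and 4 lower, which turned to 5 and 7 under that scaling, with Trp53 at 219 and 427 CPM and Cdkn1a, its main arrest target, at 83.2 and 91.8 CPM.

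The ratio also went with the length of the gene. Leaving out mitochondrial and ribosomal protein genes, the median log2 ratio was -0.14 in the 2115 genes with fewest exonic bases (up to 2497) and 0.51 in the 2115 with most (from 7880), the first and last of 5 equal classes. The share at least 1.5-fold lower was 24.4% in the shortest class and 4.16% in the longest, and the share at least 1.5-fold higher 18.6% and 45.01%. Among genes with a mean of at least 50 CPM the medians ran from -0.21 to 0.41. The same classes gave -0.17 and 0.43 at 200 mM, -0.07 and 0.44 at 250 mM, and -0.08 and 0.17 in ND, and these comparisons share NS. The depth of ND is close to that of 300 mM, but ND was grown without LIF, and the part of depth was not tested. Ribosomal protein, histone and metallothionein genes are short, and the part of length in their values was not tested. Nor was it tested for lists higher in CPM, such as the SWI/SNF and trithorax list (47.6% higher) and Polycomb (42.3% higher).

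**Figure D4:**
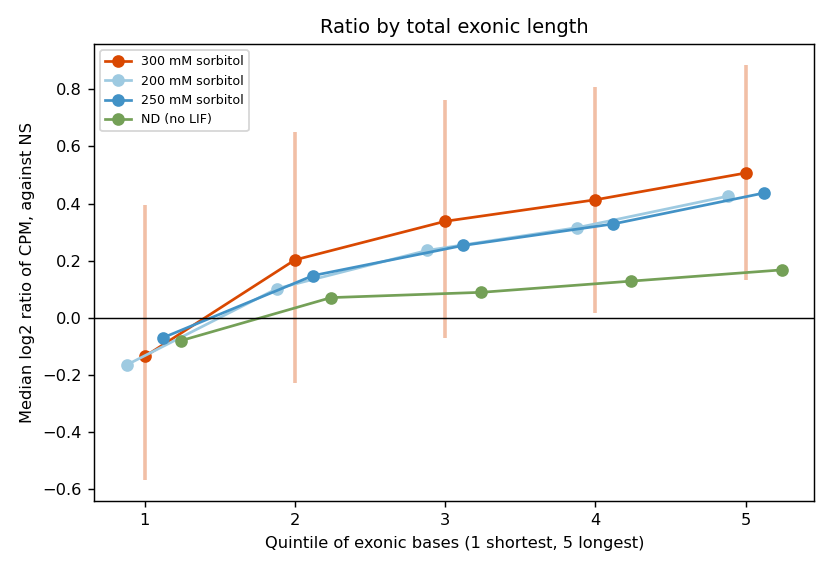
Median log2 ratio of CPM against NS by class of total exonic length (quintiles), for 300 mM sorbitol (orange, with bars from the lower to the upper quartile of genes), 200 and 250 mM sorbitol and ND. The 300 mM medians run from -0.14 in the shortest genes to 0.51 in the longest; the ND medians run from -0.08 to 0.17.

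Differences in summed level can come from more barcodes with a transcript or more transcripts in each, so barcodes were thinned to 500 UMIs and those with at least 1 UMI counted. Mt1 was found in 63.8% of NS barcodes and 12.7% of 300 mM barcodes (exact binomial intervals 62.9% to 64.8% and 12.01% to 13.3%), and those positive held 1.79 and 1.12 UMIs on average. Without thinning the shares were 96.6% and 20.1%. H19 was found in 5.87% and 25.3% of barcodes, with 1.25 and 1.83 UMIs in each positive barcode. Its Fano factor, the variance over barcodes divided by the mean, was 1.56 in NS and 2.54 at 300 mM, where independent sampling from equal barcodes gives about 1. H19 had the highest Fano factor of the 65 genes looked at in this way at 300 mM.

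For most others the Fano factor stayed near 1 in both libraries. Many of them averaged far below 1 UMI a barcode at this depth, as Ly6a did (0.0042 in NS and 0.0691 at 300 mM). At such means the Fano factor lies near 1 unless barcodes differ widely, so it does not show an even spread. The share of barcodes with a UMI then follows the mean, and does not tell more barcodes from more transcripts in each. Ly6a was found in 0.42% of NS barcodes and 6.49% at 300 mM (Fano 0.996 and 1.06), and in 1.71% and 10.1% without thinning. Sgk1 was found in 1.24% and 8.18%, Akr1b3 in 4.30% and 13.6%, Klf4 in 4.80% and 17.5%, and Tbx3 in 5% and 18.4%. Zfp42 was found in 24.5% and 34.97%, Pou5f1 in 11.5% and 7.98%, and Gapdh in 82.6% and 51.2%. For the summed osmolyte genes, 40.3% of NS barcodes and 61.3% of 300 mM barcodes held a UMI (Fano 1.001 and 1.06), whereas blood genes were found in 0.17% and 0.406%. No cell type lacking these genes was separated, and the part of RNA free in the droplets was not tested.

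**Figure D5:**
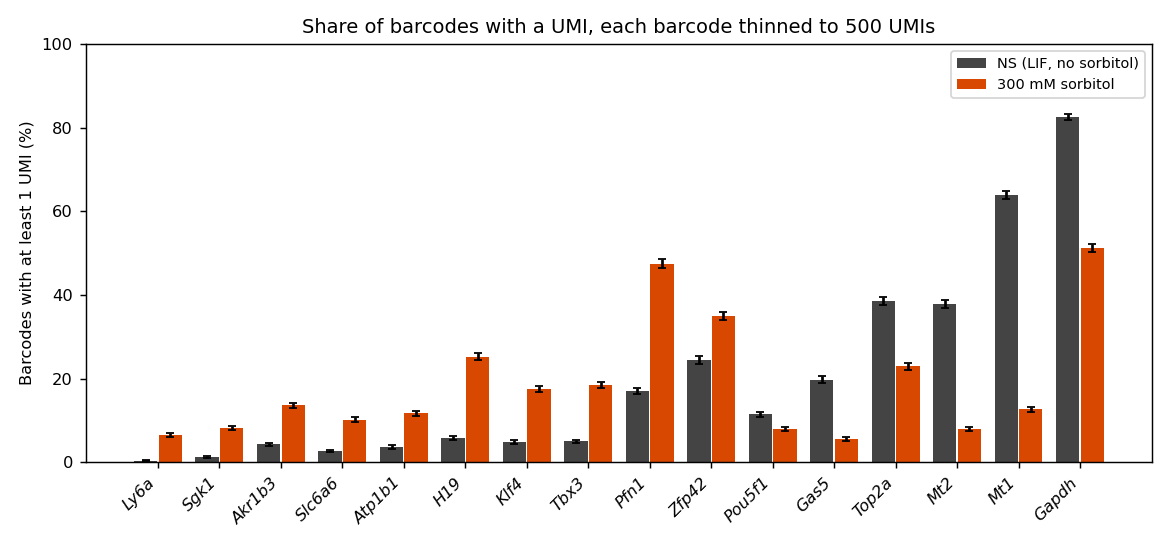
Share of barcodes with at least 1 UMI of each gene in NS (grey) and at 300 mM sorbitol (orange), each barcode thinned to 500 UMIs, with exact binomial 95% intervals. H19 stands at 5.87% and 25.3% and Mt1 at 63.8% and 12.7%; Gapdh, at 82.6% and 51.2%, shows an abundant gene for scale.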

How the data were processed

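The authors deposited raw UMI counts per gene and barcode, and Cell Ranger 6.0.1 wrote them, per the file headers. Seurat 4.1.1, R 4.1.2 and mm10 are named without roles in the submitters' processing notes. Per the labels' extract protocol, RNA was taken up in Trizol and a Lexogen 3' kit was used, but the matrices are of droplet barcodes, and this was not settled. Use of strand is not given in the sources used here, so overlapping and antisense genes are uncertain.

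Barcodes with at least 500 genes were kept, which left out 151 at 300 mM, and no doublet caller was run. Counts were summed and scaled to CPM. Ratios have exact conditional binomial intervals, levels exact Poisson intervals, and counts below 3 UMIs were set to that floor. Named were the 15 highest and 15 lowest ratios at 50 CPM or more, the 5 highest and 5 lowest at 500 CPM or more, and up to 6 members of each of 60 lists. Some other members were named for their known role after their values were seen. The members, lists and alternatives were chosen with earlier results of these data known. Coordinates come from GENCODE M21 (GRCm38) and start windows from RefSeq, without those on chromosome 18. Some members of the lists are not reported here. Python 3.11.15, NumPy 2.4.6 and SciPy 1.17.1 were used, and the ratio and its interval were tested on simulated data. Alternatives changed the scaling, the barcodes kept, the depth and the minimum level.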

Additional observations from a re-analysis of the deposited data

How the results depend on the processing

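The count of genes at least 1.5-fold higher at 300 mM (3496) and lower (1129) became 1994 and 2169 with median-of-ratios scaling, 2056 and 644 at a minimum of 20 CPM, 5410 and 2016 with no minimum beyond 3 UMIs in both libraries, and 1562 and 460 at 2-fold. The change at 20 CPM and with no minimum follows from the number of genes measured, 6741 and 15625 instead of 10671. All barcodes, at least 600 genes, at most 10% mitochondrial UMIs, no top 5% of barcodes by UMIs, thinning to 500 UMIs, and a total without mitochondrial and ribosomal protein genes kept both counts within 1.5 times. Of 174 genes named in the text that lay past 1.5-fold, some of them under 5 CPM, 166 stayed past it under all 7 alternatives run for single genes. Median-of-ratios scaling brought Zfp42, Axin2, H2-K1, Mapk14, Sox17 and Stat3 within 1.5-fold, the total without mitochondrial and ribosomal protein genes Zfp42, Axin2 and Stat3, thinning Axin2, Hist1h2ap and Sox17, and at least 600 genes Lamb1. None of the 174 changed direction, with Sox7 not computed at 600 genes. No paired analysis was possible because each condition has 1 library. The NS library is deeper than the 300 mM library, 10000 barcodes with narrow ranges of UMIs were deposited for each, and neither a second culture nor a batch is labelled, so culture, library and condition cannot be told apart.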

Other observations

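By chromosome the median log2 ratio at 300 mM ran from 0.15 on chromosome 13 (386 measured genes) to 0.39 on the X (397 genes). Xist, the long RNA that coats an inactive X chromosome, was at 1.67 CPM in NS, 7.92 CPM at 200 mM, 9.42 CPM at 250 mM and 13.1 CPM at 300 mM, and was found in 0.09% of NS barcodes and 0.65% of 300 mM barcodes at 500 UMIs. Interferon and antigen presentation genes were divided, 10 of 19 measured higher and 4 lower, or 6 and 5 with median-of-ratios scaling (all measured genes: 32.8% and 10.6%, or 18.7% and 20.3%): the RNA sensor Ddx58 (3.47 to 12.5 CPM) and Oasl2 (3.02 to 9.89 CPM) were higher, and Bst2 (24.7 to 8.20 CPM), Irf1 (31.1 to 12.1 CPM) and the class I light chain B2m (32.8 to 19.3 CPM) lower, while the class I heavy chain H2-K1 was at 46.4 and 81.5 CPM. Among calcium-binding genes S100a6 was at 265 and 594 CPM, while Anxa2 (147 to 46.5 CPM) and S100a16 (20.2 to 3.01 CPM) were lower. Malat1, a nuclear long RNA, was at 14103 CPM in NS, 22948 and 22155 CPM at the lower doses and 16622 CPM at 300 mM, so its highest levels were not at the highest dose. Lncenc1, a stem-cell long RNA, was higher at 47.7 and 152 CPM, while Platr14 (35.6 to 14.5 CPM) and Platr10 (59.9 to 27.9 CPM) were lower.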
